A study of Mus musculus with 4 samples.

Results

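Etv1, Etv4 and Etv5 form the PEA3 subfamily of ETS transcription factors, and their transcripts were followed here in mouse embryonic stem cells labelled Usp28 KO (knockout) and in control (CTL) cells. The 3 genes were taken by symbol from a table of 55401 genes. They were chosen by their levels in the comparison described here, which earlier results had shown (Etv1 and Etv4 low and Etv5 level in Usp28 KO cells), so their fold changes are given as descriptions, without a test. The cells were of the R1 line, a line of mouse embryonic stem cells, with 2 libraries labelled Usp28 KO and 2 libraries labelled WT (the CTL group). Both groups were grown on 0.2% gelatin in N2B27 medium with 1 μM PD0325901, which inhibits the ERK-activating kinase MEK, 3 μM CHIR99021, which inhibits GSK3, and 10 ng/ml of leukaemia inhibitory factor (LIF). The sources used here do not give how the knockout was made, whether it is 1 clone or several, or whether replicates are separate cultures. The spread behind every standard error and p-value is therefore that of these libraries, and may be technical.

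PEA3 factors bind DNA that carries a GGAA core through their ETS domain. Their genes are known as transcriptional outputs of fibroblast growth factor (FGF) signalling through RAS and ERK. The repressor CIC holds them down when ERK is inactive, and the COP1 ubiquitin ligase complex is known to destroy the proteins. In embryonic stem cells FGF4 and ERK push cells out of the naive state, which is why MEK is inhibited in this culture. USP28, the targeted gene's product, removes ubiquitin from proteins, MYC among them.

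The 3 genes encode closely related DNA-binding domains, and this raises the question of whether reads could be assigned to the wrong member. The most alike stretch of their coding sequences, read in the same frame, is shown with capitals for bases that are the same in all 3 genes, which held for 96 of 120 bases (80%). The sequences are from the GENCODE M21 transcripts on GRCm38 (mm10), 5′ to 3′ on the coding strand. Each lies within the coding part of 2 neighbouring exons, at chr12:38861326-38865604 on the plus strand for Etv1, chr11:101770534-101771031 on the minus strand for Etv4 and chr16:22383635-22386819 on the minus strand for Etv5, introns included in these spans.
Etv1: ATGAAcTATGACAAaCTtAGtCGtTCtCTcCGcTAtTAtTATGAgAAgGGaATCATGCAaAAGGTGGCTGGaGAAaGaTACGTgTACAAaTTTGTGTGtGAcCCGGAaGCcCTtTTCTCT
Etv4: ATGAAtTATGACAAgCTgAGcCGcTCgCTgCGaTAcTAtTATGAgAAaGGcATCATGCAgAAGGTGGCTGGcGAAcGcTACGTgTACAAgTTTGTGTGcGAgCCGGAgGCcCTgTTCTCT
Etv5: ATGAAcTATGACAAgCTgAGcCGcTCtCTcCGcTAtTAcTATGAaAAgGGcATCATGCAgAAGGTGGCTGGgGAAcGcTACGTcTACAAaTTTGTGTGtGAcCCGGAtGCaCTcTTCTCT
The lower-case letters, which mark the differences, are spread along the whole stretch, and the longest run of identical bases between any transcripts of a pair was short. It was 18 bases between Etv1 and Etv4, 23 bases between Etv1 and Etv5, and 23 bases between Etv4 and Etv5. A read longer than these runs therefore always carried at least 1 base that differed between members.

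Outside the subfamily the picture was different for each gene, because processed pseudogenes (old copies of the mRNA inserted in the genome) carry long stretches of Etv1 and Etv5. Of the 50-base words in its principal transcript, Etv4 shared 0% with any other annotated gene, on either strand. Etv5 shared 26.8%, all with the pseudogene Gm4798 on chromosome 10. Etv1 shared 19.0% in its principal transcript, nearly all with the pseudogene Gm5454 on chromosome 13, which held 1141 words of Etv1. Of the 1238 shared words of the Etv1 principal transcript, 1137 lie in its coding part and the remainder in its 3′ untranslated region. The counting of reads that match several places is not given in the sources used here. No exon of another annotated gene overlapped the exons of Etv1, Etv4 or Etv5 on either strand.

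Etv1 (ENSMUSG00000004151, chromosome 12, 38779380 to 38870484, plus strand) has 13 annotated transcripts, and the merged exons span 13296 bases. Etv4 (ENSMUSG00000017724, chromosome 11, 101769742 to 101785371, minus strand) has 12 transcripts and 3104 bases of merged exons. Etv5 (ENSMUSG00000013089, chromosome 16, 22381309 to 22439719, minus strand) has 5 transcripts and 4103 bases of merged exons. The coding length of the principal transcript was similar in the 3 genes, at 1431 bases in Etv1, 1455 bases in Etv4 and 1530 bases in Etv5, so the difference in merged length lies mainly outside it.

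The start sites of Etv1 and Etv5 were searched for letters linked to the pathway, in windows running from 250 bases before to 50 bases after each start (RefSeq sequences, build GRCm38.p6). RefSeq windows were matched for Etv1 and Etv5, with 2 windows each. The 6 motifs, each of 7 letters and searched on both strands, were CCGGAAG for ETS factors, TGAATGA and TGAATGG for the first letters of the CIC octamer, TGANTCA for AP-1, TGACGTC for the cAMP response element and CTTTGAT for TCF/LEF factors. The matches do not overlap one another. The Etv5 window at its downstream start is shown because it held 3 copies of TGAATGG, marked in capitals (one as its reverse complement), at chr16:22438319-22438618 on the minus strand.
Etv5 downstream start: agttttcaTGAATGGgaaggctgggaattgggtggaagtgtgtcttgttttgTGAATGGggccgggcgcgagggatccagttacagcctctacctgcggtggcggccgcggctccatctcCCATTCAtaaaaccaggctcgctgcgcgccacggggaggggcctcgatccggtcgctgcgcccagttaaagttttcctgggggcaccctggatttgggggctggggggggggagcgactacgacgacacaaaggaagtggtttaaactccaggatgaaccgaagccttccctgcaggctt
The copies begin 242, 198 and 130 bases before the start site. In each of them the base after the 7 letters is G, where the CIC octamer as usually written has A, so they match only its first 7 letters. Of 32851 such windows in the mouse genome, 3.59% held TGAATGG at least 1 time, 28 held it at least 2 times, and this Etv5 window was the only one with 3. The other Etv5 window, at the upstream start, and both Etv1 windows held none of the 6 motifs, which says only that these letters are not in these windows. CCGGAAG was in 8.86% of all windows, TGAATGA in 3.75%, TGANTCA in 7.81%, TGACGTC in 3.21% and CTTTGAT in 3.73%. The upstream Etv5 window was 74% G and C, against 48.7% in the upstream Etv1 window and a median of 52.7% over all windows. The table gives reads per gene, so which start site was in use was not measured.

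Libraries held between 16595196 and 19533608 counts. Usp28, the targeted gene (chromosome 9, 48985375 to 49042517), had 3392 and 3319 counts in the libraries labelled Usp28 KO, against 3690 and 3120 in the CTL libraries, so its gene-level count does not check the label. Pluripotency markers were abundant. The 7 genes of that list summed to 4010 and 4370 CPM (counts scaled to library size) in Usp28 KO libraries and 4760 and 4780 CPM in CTL libraries. Their log2 fold changes (Usp28 KO over CTL) had a median of -0.107, with 2 above 0 and 5 below. By edgeR and by DESeq2, 0 passed the adjusted test, against 0% and 0.929% of all genes. The lowest was Tfcp2l1 (-0.54, edgeR adjusted p = 0.25), at 680 and 694 CPM in Usp28 KO libraries and 999 and 994 CPM in CTL libraries. The mitochondrial share of reads was 1.92% and 3.33% in Usp28 KO libraries, against 2.77% and 5.65% in CTL libraries. The 6 fibroblast markers summed to between 0.563 and 1.07 CPM in any library, with Postn and Lum at 0 in all 4, and the 6 primitive endoderm markers to 12.0 and 12.5 CPM in Usp28 KO libraries and 12.6 and 8.70 CPM in CTL libraries. Of the 6 neural markers Neurog2 was at 0 in all 4 libraries, and of the 6 trophoblast markers Cdx2 was at 0 in 3 of the 4. The lists of trophoblast, neural, and mesoderm and primed markers had sums of up to 180, 115 and 22.3 CPM, led by Tfap2c, Tubb3 and Eomes. The part of these differences in the PEA3 values was not tested.

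Etv5 made up most PEA3 RNA in both groups, and its level did not separate them, while the far scarcer Etv1 and Etv4 were lower in Usp28 KO cells. All CPM were scaled with TMM factors (trimmed mean of M values). The 3 genes passed the filter on low counts, with at least 60 reads in every library.

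Etv5, known from mouse spermatogonial stem cells for their self-renewal, had 8526 and 9744 counts in Usp28 KO libraries and 9336 and 8240 counts in CTL libraries. These were 456 and 520 CPM in Usp28 KO libraries, against 478 and 520 CPM in CTL libraries. The groups overlapped, with replicate 1 the lower one in each group. The log2 fold change, Usp28 KO over CTL, was -0.032 ± 0.17 (standard error of the edgeR fit, n = 2 libraries per group). Leaving out 1 library at a time moved it between -0.13 and 0.059.

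Etv1, known in mice and humans as a factor of motor circuits, heart conduction and gastrointestinal pacemaker cells, had 133 and 138 counts in Usp28 KO libraries and 334 and 295 counts in CTL libraries. These were 7.12 and 7.36 CPM in Usp28 KO libraries, against 17.1 and 18.6 CPM in CTL libraries. Both Usp28 KO libraries lay below both CTL libraries, and the replicates within a group were close. The log2 fold change was -1.30 ± 0.22, a level of 0.406 times that of CTL cells. Over the 4 possible pairs of a Usp28 KO and a CTL library the log2 ratio ran from -1.39 to -1.22.

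Etv4, the founding member of the subfamily, first named PEA3, had 60 and 76 counts in Usp28 KO libraries and 241 and 147 counts in CTL libraries. These were 3.21 and 4.05 CPM in Usp28 KO libraries, against 12.3 and 9.27 CPM in CTL libraries. The groups did not overlap, but the CTL replicates were farther apart than those of Etv1. The log2 fold change was -1.57 ± 0.28, or 0.336 times the CTL level, and the 4 library pairs ran from -1.94 to -1.19. Counting error alone was 12.9% and 11.5% of the value in Usp28 KO libraries, and 6.44% and 8.25% in CTL libraries. In bulk RNA fewer cells with the transcript and less transcript per cell cannot be told apart, for any of the 3 genes.

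Since the members were taken from this comparison, their positions in it are given as background only. Usp28 KO libraries both lay below CTL libraries in 2 of the 3 members, which was so for 20.4% of the 15341 genes tested. The 5% of tested genes with the lowest log2 fold changes lay below -0.59, with 86 genes below Etv1 and 39 below Etv4. The median over all tested genes was -0.004.

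**Figure D1:**
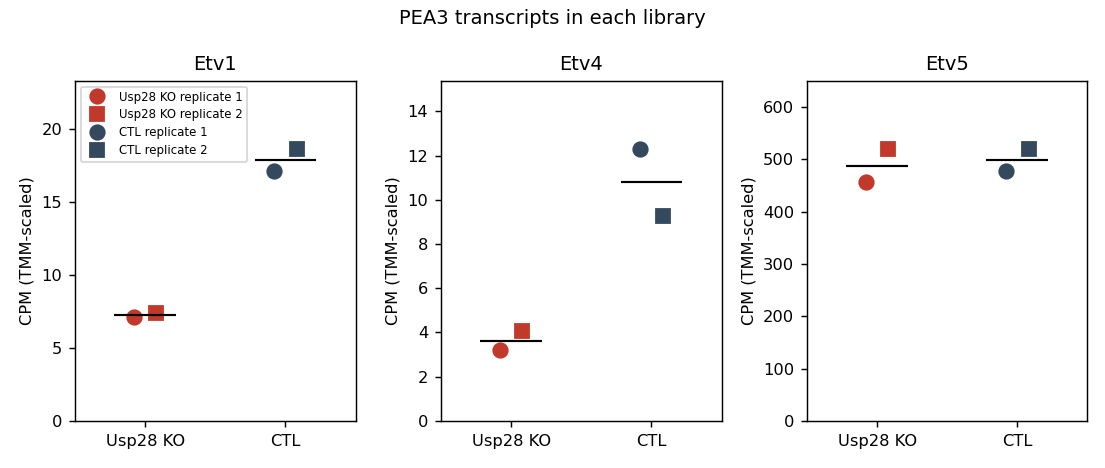
CPM (TMM-scaled) of Etv1, Etv4 and Etv5 in each library, Usp28 KO left and CTL right, each panel with its own axis from 0; circles are replicate 1, squares replicate 2, and lines the mean of 2 libraries. Etv1 and Etv4 were lower in both Usp28 KO libraries, at 7.12 and 7.36 and at 3.21 and 4.05, and the Etv5 groups overlapped between 456 and 520.

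Levels of different genes were compared per length, as TPM (read counts divided by the merged exon length, then scaled to the same total in every library). On this scale Etv5 stood at 385 and 431 TPM in Usp28 KO libraries and 394 and 405 TPM in CTL libraries. Etv4 stood at 3.58 and 4.45 TPM in Usp28 KO libraries and 13.4 and 9.55 TPM in CTL libraries. Etv1 stood at 1.85 and 1.89 TPM in Usp28 KO libraries and 4.34 and 4.47 TPM in CTL libraries. Etv5 thus supplied 98.6% of the summed PEA3 level in each Usp28 KO library, against 95.7% and 96.7% in CTL libraries. The level of Etv5 over that of Etv1 and Etv4 together was 70.8 and 68.1 in Usp28 KO libraries, against 22.1 and 28.9 in CTL libraries. The summed level of the 3 genes overlapped between the groups, at 390 and 438 TPM in Usp28 KO libraries and 411 and 419 TPM in CTL libraries.

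The order of Etv5 above the others held for every length tried, but that of Etv4 and Etv1 did not. Per kilobase of merged exons, Etv4 was at 1.03 and 1.31 CPM in Usp28 KO libraries and at 3.97 and 2.99 CPM in CTL libraries, and Etv1 at 0.535 and 0.554 CPM in Usp28 KO libraries and at 1.29 and 1.40 CPM in CTL libraries. With the median length of protein-coding transcripts (1722 bases for Etv1, 2377 bases for Etv4), a choice made after the data were seen, Etv1 lay above Etv4 in all 4 libraries. Etv1 was then at 4.13 and 4.27 CPM per kilobase in Usp28 KO libraries and at 9.93 and 10.8 in CTL libraries, and Etv4 at 1.35 and 1.71 in Usp28 KO libraries and at 5.19 and 3.90 in CTL libraries. Etv5 was at 121 and 138 in Usp28 KO libraries and at 127 and 138 in CTL libraries. Its lead over the others was smaller with this length, so the shares and ratios given above hold only for merged exons. The counting of reads shared with the pseudogenes could also move the levels of Etv1 and Etv5 against Etv4, which was not tested.

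Within the ETS family Etv5 was the most abundant transcript per length in every library, ahead of Erf, a repressor that ERK phosphorylates and inactivates. Erf stood at 159 and 229 TPM in Usp28 KO libraries and 228 and 208 TPM in CTL libraries, below all Etv5 values. Gabpa, which encodes the DNA-binding subunit of GABP, and the epithelial factor gene Elf3 followed between 108 and 146 TPM and overlapped each other. Etv4 ranked 15th and 14th among the 26 ETS genes of the table in Usp28 KO libraries, and 9th and 10th in CTL libraries. Its CTL levels overlapped those of Etv3 and Ets2. Etv1 ranked 16th and 17th in Usp28 KO libraries and 15th in both CTL libraries, where its levels were close to those of Elf4. These ranks rest on merged exon lengths, which for Etv1 (13296 bases) far exceed the median of its protein-coding transcripts (1722 bases). Ranks with other lengths, or without sequence shared with pseudogenes, were not worked out.

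Besides the PEA3 genes, 23 ETS genes were measured, of which 15 passed the low-count filter, and none passed the edgeR test with Benjamini-Hochberg adjustment at 0.05, where 0% of all 15341 genes did (0 higher, 0 lower, against 1052 higher and 666 lower at an unadjusted p under 0.05). At an unadjusted p under 0.05, 1 of the 15 was higher and 2 lower. DESeq2, which called 0.929% of 13668 genes (0.578% higher and 0.351% lower), also called 0 of the 13 ETS genes for which it gave an adjusted p. The median log2 fold change of the 15 tested ETS genes was -0.17. With a library left out and the filter applied again, it was 0.022 without Usp28 KO replicate 1 and -0.046 without CTL replicate 2. The list medians by DESeq2 (0.049) and with no filter on low counts (0.056) also took in ETS genes with few reads. They therefore do not compare the same genes. Elf4, an ETS factor studied in T cells, had 13.4 and 15.2 CPM in Usp28 KO libraries and 7.63 and 7.06 CPM in CTL libraries (log2 fold change 0.96 ± 0.23; edgeR, adjusted p = 0.134). Spic, a factor of iron-recycling macrophages in mice, had 4.44 and 4.05 CPM in Usp28 KO libraries and 8.39 and 6.31 CPM in CTL libraries (-0.79 ± 0.28; edgeR, adjusted p = 0.322). The groups did not overlap for either gene, as was so for 41.8% of all genes tested, and neither gene passed the test. Among the 15 ETS genes, both Usp28 KO libraries lay above both CTL libraries in 4 and below them in 4. Etv6, a repressor, stood at -0.46 ± 0.19, Erf at -0.23 ± 0.19 and Gabpa at -0.28 ± 0.18 on the log2 scale. Single libraries moved these values, Etv6 between -0.71 and -0.25 (without Usp28 KO replicates 2 and 1), Erf between -0.54 and 0.022 (without the same libraries) and Gabpa between -0.49 and -0.046 (without CTL replicates 1 and 2), and Gabpa was -0.12 after GC correction. Of the 8 genes under the filter, Fev was at 0 in all 4 libraries, and Etv2, a factor of blood and vessel progenitors, had at most 0.800 CPM.

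**Figure D2:**
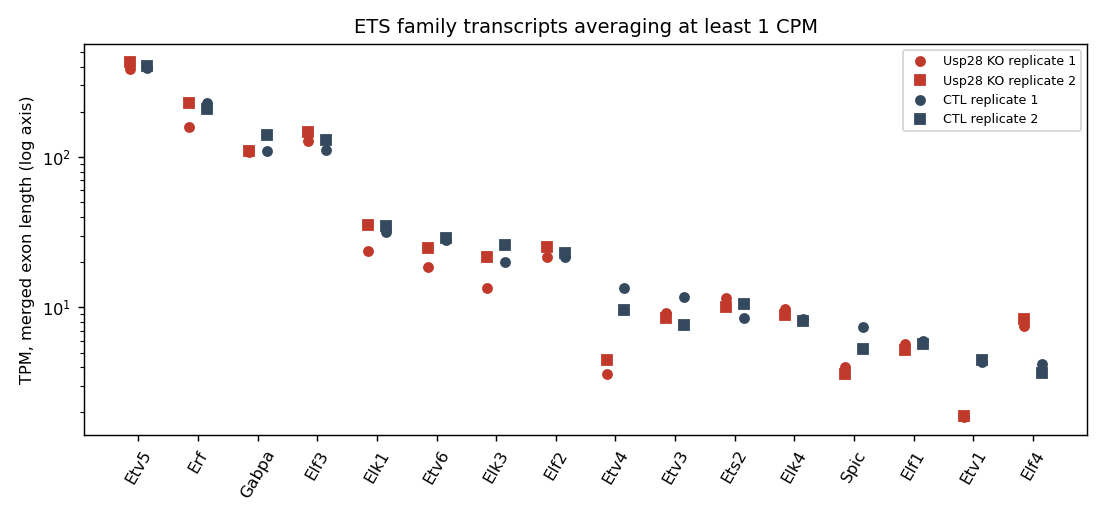
Level per length (TPM) on a log axis for the 16 ETS family genes averaging at least 1 CPM, ordered by their CTL level, with Usp28 KO libraries in red on the left of each gene and CTL libraries in dark blue on the right. Etv5 lies above every other gene, at 385 to 431 TPM, and Etv4 and Etv1 have their Usp28 KO points below their CTL points.

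The correction for GC content moved the fold changes of Etv1 and Etv4 in opposite directions. Both kept their sign under all 14 alternatives. These genes were chosen from this comparison, and every library pair already gave a log2 ratio below 0, so the kept sign is no separate evidence. GC content tracked the libraries unequally. Across genes of at least 5 CPM, each library's deviation from the others was rank-correlated with GC content at 0.003 and 0.451 in Usp28 KO replicates 1 and 2, and at 0.055 and -0.441 in CTL replicates 1 and 2. The longest transcript of Etv1 is 39.8% G and C, that of Etv5 51.8% and that of Etv4 58.7%. With offsets for this trend the log2 fold change was -1.10 for Etv1, -1.75 for Etv4 and -0.054 for Etv5. Etv4 without a library ranged from -1.77 (without CTL replicate 2) to -1.35 (without CTL replicate 1), and Etv1 from -1.36 to -1.25.

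**Figure D3:**
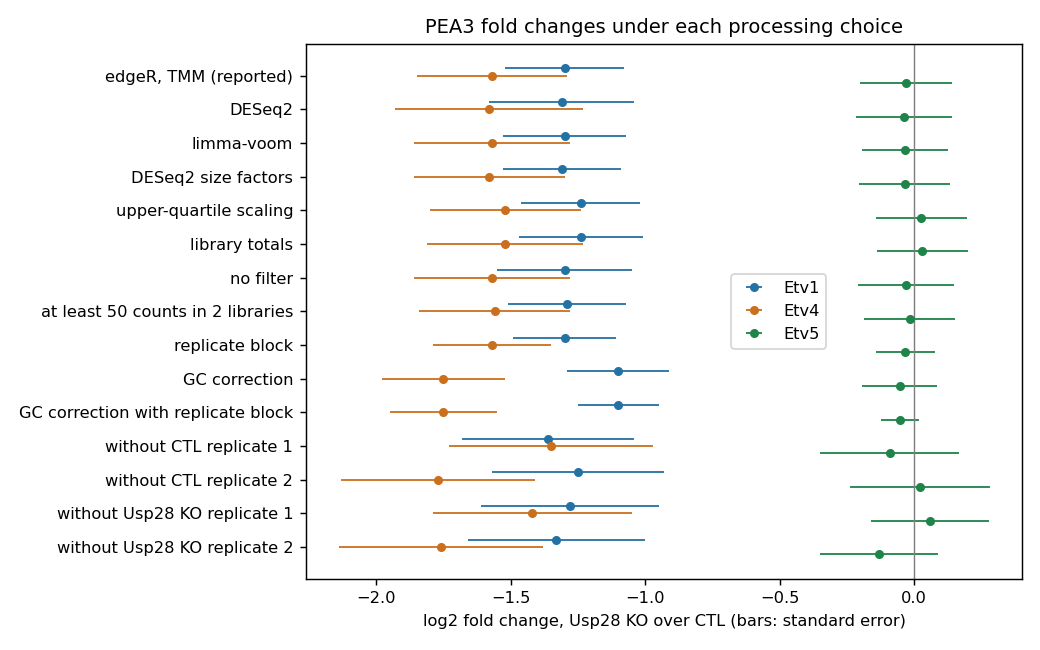
Log2 fold change (Usp28 KO over CTL, points) with its standard error (bars) for Etv1, Etv4 and Etv5 under the reported fit and 14 alternatives. Etv1 lies between -1.36 and -1.10, Etv4 between -1.77 and -1.35 and Etv5 between -0.13 and 0.059.

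The pseudogenes that share sequence with Etv1 and Etv5 had far fewer reads than these genes. Gm5454, the copy of Etv1, had 9 and 10 counts in Usp28 KO libraries and 35 and 27 counts in CTL libraries, or 0.481 and 0.533 CPM against 1.79 and 1.70 CPM. Its log2 fold change was -1.77 ± 0.48 (edgeR, adjusted p = 0.177), which did not pass the test. Adding these reads to Etv1 gave 7.60 and 7.89 CPM in Usp28 KO libraries and 18.9 and 20.3 CPM in CTL libraries, a log2 ratio of the means of -1.34. Gm4798, the copy of Etv5, had 33 and 21 counts in Usp28 KO libraries and 18 and 33 counts in CTL libraries, and its groups overlapped as those of Etv5 did. Reads of parent and copy cannot be told apart where their sequence is the same.

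The pathway around the PEA3 genes was read through 8 lists, of which 119 genes were in the table and 95 passed the filter. By edgeR 0 of the 95 passed the adjusted test, and at an unadjusted p under 0.05, 12.6% were higher and 7.37% lower, against 6.86% and 4.34% of all genes tested. By DESeq2 4 of 87 were called (Fos and Ier3 higher, Spry4 and Myc lower), which is 4.60%, against 0.929% of all genes. These genes were known from earlier results when the lists were drawn up, so this share is no separate evidence.

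Among ligands and receptors, DESeq2 gave an adjusted p for 10 FGF genes and called 0, against 0.929% of all genes. Of the 16 FGF genes 12 passed the filter, and 0 passed the adjusted test of edgeR, where 0% of all genes did. Their median log2 fold change was 0.16, against 0.029 after GC correction and 0.30 without CTL replicate 2. At an unadjusted p under 0.05 (edgeR), 5 of the 12 were higher and 0 lower, against 6.86% and 4.34% of all genes tested. The list was drawn up with earlier results of these data known, so this count is no separate evidence. Fgf4, the main FGF ligand of embryonic stem cells, had 305 and 283 CPM in Usp28 KO libraries and 207 and 230 CPM in CTL libraries (log2 fold change 0.43 ± 0.16; edgeR, adjusted p = 0.337). Fgf15, a ligand best known from the mouse gut and embryo, had 4.60 and 4.53 CPM in Usp28 KO libraries and 1.13 and 1.70 CPM in CTL libraries (1.70 ± 0.36; edgeR, adjusted p = 0.102, and DESeq2, adjusted p = 0.0542). The groups of both ligand genes did not overlap, with Usp28 KO above CTL, as was so for 21.4% of all genes tested. Fgfr1, the most abundant receptor gene, overlapped at 166 and 208 CPM in Usp28 KO libraries and 182 and 178 CPM in CTL libraries.

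The 23 genes of the RAS-ERK cascade, its RAS-inactivating members and the RSK kinases downstream of ERK included, lay between -0.39 and 0.20 on the log2 scale. Their median was -0.012, and 0.045 with upper-quartile scaling, 0.052 with library totals and 0.091 without CTL replicate 2. None passed the adjusted test by edgeR or DESeq2, which called 0% and 0.929% of all genes. At an unadjusted p under 0.05 (edgeR), 1 was lower and 0 higher, against 4.34% and 6.86% of all genes tested. The lowest was Rasa1, which encodes a GTPase-activating protein that turns RAS off (-0.39 ± 0.17; edgeR, adjusted p = 0.406).

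Other known outputs of ERK lay on both sides of 0. Spry4, a feedback inhibitor of receptor tyrosine kinases, had 9.95 and 18.1 CPM in Usp28 KO libraries and 41.8 and 38.4 CPM in CTL libraries (log2 fold change -1.51 ± 0.26; edgeR, adjusted p = 0.0611, and DESeq2, adjusted p = 0.000117). Dusp6, an ERK phosphatase whose gene ERK induces, had 21.3 and 19.6 CPM in Usp28 KO libraries and 32.0 and 26.5 CPM in CTL libraries, which did not pass (-0.52 ± 0.20; edgeR, adjusted p = 0.346). Dusp9, another MAP kinase phosphatase, had 44.7 and 46.2 CPM in Usp28 KO libraries and 29.5 and 29.4 CPM in CTL libraries (0.63 ± 0.18; edgeR, adjusted p = 0.194). Of the 11 feedback inhibitors tested 1 was called by DESeq2, Spry4, against 0.929% of all genes, and Spry4 was known from earlier results. The median of the list was -0.13, against -0.031 and -0.062 without Usp28 KO replicates 1 and 2.

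Of the 9 other ERK-induced genes tested, 7 had an adjusted p by DESeq2, which called Ier3 and Fos higher and Myc lower. DESeq2 called 0.929% of all genes. These genes were known from earlier results when the list was drawn up, so the count is no separate evidence. Fos, an AP-1 subunit and immediate early gene, stood at 1.51 ± 0.33 on the log2 scale (edgeR, adjusted p = 0.115, and DESeq2, adjusted p = 0.0128). Ier3, a stress-inducible survival gene, stood at 1.39 ± 0.26 (edgeR, adjusted p = 0.0643, and DESeq2, adjusted p = 0.00147). Myc stood at -1.68 ± 0.32 (edgeR, adjusted p = 0.0715, and DESeq2, adjusted p = 0.00461). The median of that list was 0.39, against 0.15 after GC correction and 0.22 without Usp28 KO replicate 2. It was 0.13 with the stricter filter of 50 counts in 2 libraries, which keeps fewer of these genes. Egr1, the immediate early gene most often used to read ERK activity, had 0.963 and 1.12 CPM in Usp28 KO libraries and 0.717 and 0.441 CPM in CTL libraries, on 7 to 21 counts per library.

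No tested regulator of PEA3 genes or proteins passed the test at the RNA level, where edgeR called 0 of all 15341 genes. The lack of a call therefore does not show that these regulators were unchanged. Cic, the repressor of PEA3 genes, had 234 and 373 CPM in Usp28 KO libraries and 273 and 330 CPM in CTL libraries. The groups overlapped, and its log2 fold change of 0.0094 ± 0.21 was -0.24 after GC correction. Cop1, whose product directs PEA3 proteins to destruction, had 46.3 and 44.8 CPM in Usp28 KO libraries and 48.7 and 51.3 CPM in CTL libraries (-0.13 ± 0.17, and 0.19 after GC correction; edgeR, adjusted p = 0.825). Trib1, which encodes a pseudokinase that brings substrates to COP1, had 12.8 and 16.5 CPM in Usp28 KO libraries and 9.32 and 10.8 CPM in CTL libraries (0.54 ± 0.24; edgeR, adjusted p = 0.414). None of the 2 tested CIC-complex genes and none of the 10 COP1-complex genes passed the adjusted test by edgeR or DESeq2. DESeq2 called 0.929% of all genes. At an unadjusted p under 0.05 (edgeR), 0 of 2 and 1 of 10 were higher, against 6.86% of all genes tested. At that threshold 0 were lower, against 4.34% of all genes tested. RNA levels say nothing of the amount or activity of these proteins.

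Genes tied to PEA3 factors in other tissues, from tumour invasion, limb, kidney and male germ line, gave no call. Of 20 such genes 13 passed the filter. By edgeR 0 of the 13 passed the adjusted test, and by DESeq2 0 of the 11 with an adjusted p. Over all genes these tests called 0% and 0.929%, so the lack of a call does not set this list apart. At an unadjusted p under 0.05 (edgeR), 2 were higher and 1 lower, against 6.86% and 4.34% of all genes tested. The median log2 fold change of the 13 was 0.046. With the filter applied again, that median was 0.27 without CTL replicate 1 and 0.16 without Usp28 KO replicate 1. By DESeq2 and with no filter the list median was also 0.16, but it then took in genes with few reads, so the genes are not the same. Icam1, an adhesion gene, had 93.5 and 105 CPM in Usp28 KO libraries and 62.9 and 66.8 CPM in CTL libraries (0.62 ± 0.16; edgeR, adjusted p = 0.170). Mmp2, a gelatinase gene, had 7.28 and 8.75 CPM in Usp28 KO libraries and 4.09 and 4.04 CPM in CTL libraries (0.98 ± 0.27; edgeR, adjusted p = 0.193). Snai1, a factor of epithelial to mesenchymal transition, had 1 and 2 counts in Usp28 KO libraries and 15 and 10 counts in CTL libraries. The ratio of its summed, scaled counts was 0.113, with an exact 95% interval of 0.0219 to 0.372 for counting error only. Its log2 fold change of -3.03 ± 0.80 did not pass the test (edgeR, adjusted p = 0.170), and DESeq2 gave it no adjusted p. Mmp3, Mmp7 and Ccl9 were at 0 in all 4 libraries.

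**Figure D4:**
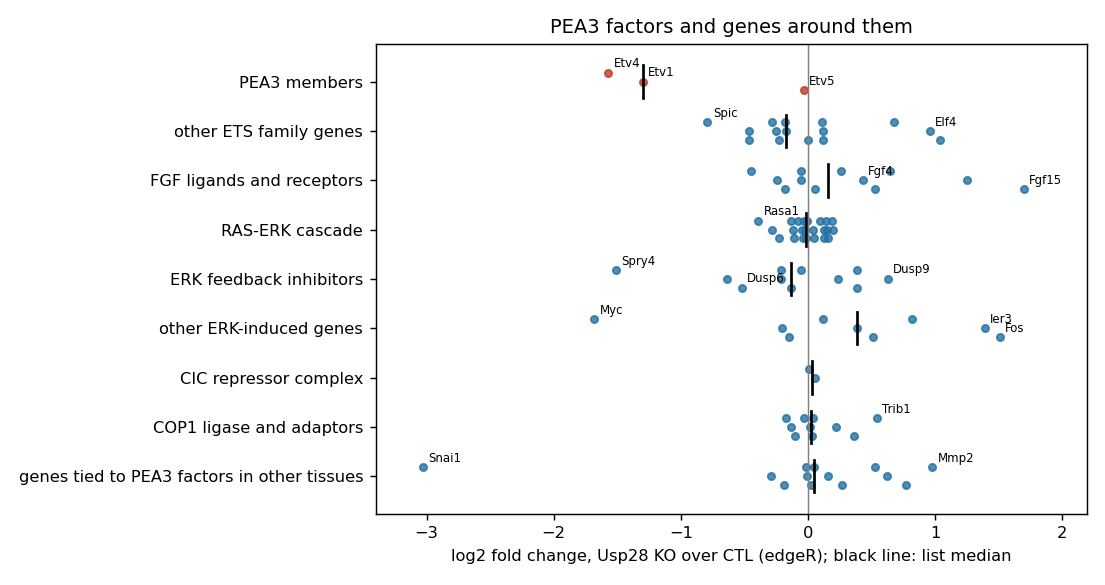
Log2 fold change (Usp28 KO over CTL, edgeR) of each gene that passed the low-count filter, by list, with vertical lines at list medians; the PEA3 genes are in red. Etv4 and Etv1 lie at -1.57 and -1.30 beside Spry4 at -1.51 and Myc at -1.68, while Fos, Ier3 and Fgf15 lie above 1 and the RAS-ERK cascade stays between -0.39 and 0.20.

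The genes whose pattern over the 4 libraries was most like that of each member were found among 10070 genes of at least 5 CPM whose symbol is not a predicted or clone name, by the Euclidean distance between log2 CPM profiles centred on each gene's own mean. They were chosen for their likeness in these libraries, so their fold changes are descriptions. For Etv1 they were Enox1, an oxidase gene (distance 0.27), Mme, the membrane metalloendopeptidase gene (0.32), Sfr1, a partner of recombination proteins (0.33), Smim10l1 (0.34) and Ehhadh, a peroxisomal beta-oxidation enzyme gene (0.41). Enox1 had 35.8 and 44.0 CPM in Usp28 KO libraries, against 87.3 and 86.3 CPM in CTL libraries. The 5 genes had log2 fold changes between -1.26 and -1.02.

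For Etv4 the nearest was Id3, an inhibitor of basic helix-loop-helix factors (distance 0.24), with 3.42 and 4.11 CPM in Usp28 KO libraries and 14.0 and 8.39 CPM in CTL libraries. Id3 followed Etv4 also in the higher value of CTL replicate 1. Next were Cdx1, a caudal homeobox gene (0.34), Spry4 (0.43), Ehhadh (0.45) and Aoah, an enzyme gene that inactivates bacterial lipopolysaccharide (0.50), with log2 fold changes between -1.51 and -1.12. Ehhadh was the one gene near both Etv1 and Etv4. The genes nearest to Etv5, which varied little itself, were Jmjd8, Osbpl2, Top3a, Prim2 and Samhd1, at distances of 0.014 to 0.025.

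**Figure D5:**
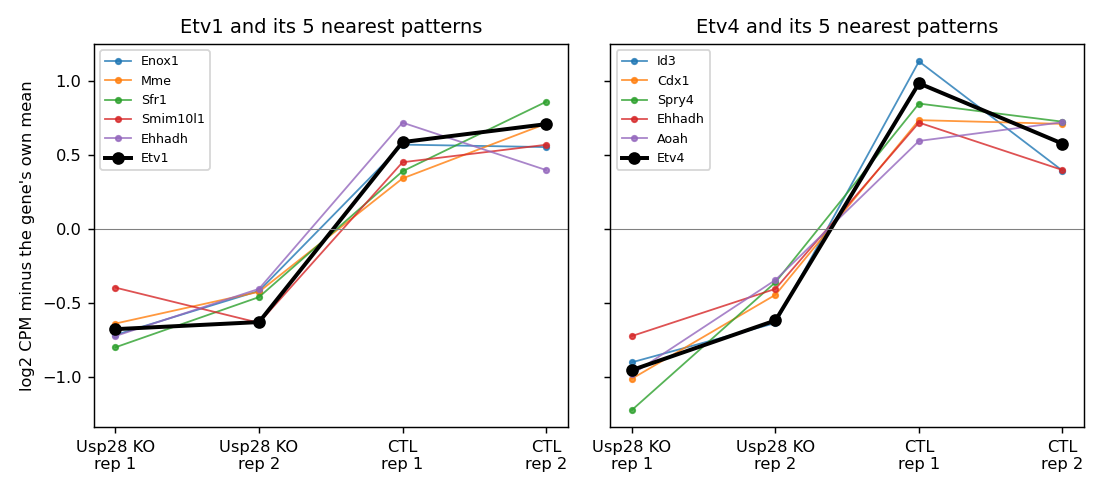
Log2 CPM minus each gene's own mean in the 4 libraries, Usp28 KO on the left and CTL on the right, for Etv1 (left panel) and Etv4 (right panel) in black and their 5 nearest genes in colour; lines join the values of a gene and imply no order. Every gene shown lies below its mean in both Usp28 KO libraries and above it in both CTL libraries, and Id3 lies closest to Etv4, at a distance of 0.24.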

How the data were processed

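Polyadenylated RNA of 4 libraries was sequenced after an Illumina TruSeq preparation, per the labels' protocols. The authors deposited raw read counts per gene for 55401 genes on mm10. The submitters' processing notes name HISAT2, featureCounts and DESeq2, with no version. Strand and multi-mapping settings and the authors' annotation release: not given in the sources used here. The exon length per gene is the deposited table's own. GENCODE M21 supplied symbols for 55141 identifiers, ignoring version suffixes; 260 stayed unmatched. With suffixes, 54349 matched, each at identical coordinates.

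From the counts, edgeR 4.0.16 in R 4.3.3 kept 15341 genes (filterByExpr, minimum count 10, minimum total 15), scaled by TMM, and compared Usp28 KO with CTL by a robust quasi-likelihood test with Benjamini-Hochberg adjustment over all genes and a threshold of 0.05. DESeq2 1.42.0 on the unfiltered table, limma 3.58.1 (voom), other scalings and filters, a GC correction (spline of 5 degrees of freedom), the replicate number as a block and leaving out each library were alternatives. List medians under an alternative were taken over the list genes it kept, so the genes can differ between settings. The default edgeR, DESeq2 and limma-voom fits were tried on simulated counts with a fixed dispersion and no GC trend or replicate effect. The other alternatives were not tried on them.

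The members and gene lists were chosen with earlier results of these data known. Genes that could be named were the members and Usp28; ETS, CIC and COP1 genes of at least 1 CPM, of which the text gives some; up to 4 genes per other list by smallest p and 8 fixed genes, of which 1 is not reported here; and the 5 nearest patterns per member. Gm5454 and Gm4798 were taken for shared sequence, and genes at 0, Etv2 and leading cell-type markers after their values were seen. Counting intervals cover counting error only; with 2 libraries per group precision rests on their spread.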

Additional observations from a re-analysis of the deposited data

How the results depend on the processing

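For the PEA3 genes 1 comparison moved by more than the spread between replicates: Etv1, at -1.30, was -1.10 with the GC correction, alone or with the replicate block. Without 1 library in turn Etv1 ranged from -1.36 to -1.25, Etv4 from -1.77 to -1.35 and Etv5 from -0.13 to 0.059; Etv5 was 0.026 and 0.030 with upper-quartile scaling and library totals. These 2 scalings moved the median of all genes to 0.053 and 0.057.

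Counts of genes past the threshold moved far more. In place of 0 higher and 0 lower by edgeR, there were 79 and 48 by DESeq2, 18 and 3 with upper-quartile scaling, 24 and 5 with library totals, 204 and 118 with no filter, 965 and 716 with the replicate block, and 1377 and 1416 with the block and the GC correction. Leaving out a library leaves 1 group with a single library, which is then assumed to vary like the other group, and gave 49 (without CTL replicate 1) to 146 (without Usp28 KO replicate 2) higher, and 31 (without Usp28 KO replicate 1) to 200 (without Usp28 KO replicate 2) lower. Of the genes in the 8 lists, 2 higher and 2 lower were called by DESeq2, 1 and 1 with library totals, 4 and 2 with no filter, 11 and 8 with the replicate block, 11 and 15 with the block and the GC correction, and 1 to 3 higher and 1 to 2 lower without a library. The cause was not tested. Same-numbered libraries deviated together (r = 0.518 across 10704 genes, which are not independent), but the labels do not say that a number marks a shared batch, and there are only 2 pairs. The smallest adjusted p of the edgeR test was 0.054, and that of limma-voom 0.0507, with 0 called each way.

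Among the other named genes 9 values changed sign. Cic, at 0.0094, was -0.023 by limma-voom, -0.022 with the replicate block, -0.24 with the GC correction, -0.25 with both, -0.12 without CTL replicate 1 and, over all 4 left-out libraries, between -0.37 and 0.30. Cop1 was 0.19 with the GC correction, with or without the block, and Erf ranged from -0.54 to 0.022, above 0 without Usp28 KO replicate 1. Of the PEA3 genes depth limits Etv4 most, with 60 counts in its lowest library.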
